A study of Homo sapiens with 6 samples.

Results

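AP-1 is a family of dimeric transcription factors, and 9 of its subunit genes (FOSL1, FOSL2, FOS, FOSB, JUN, JUNB, JUND, JDP2 and BATF3) were examined out of 58735 genes in a deposited table of FPKM (fragment counts scaled by exonic length and library size). The 9 genes were chosen by their gene symbols, with earlier results of the same contrast known, in which FOSL1 was lower. The comparison of the groups is therefore a description for these genes. Counts of them past a threshold are set beside the share of all genes, and nothing is read from those counts. RNA had been sequenced from 6 libraries of human cells labelled MB231, a label read here as the breast cancer line MDA-MB-231. The identity of the cells was not tested. The 3 libraries labelled shNC had the genotype wild type, and the 3 labelled shPAK5 had the genotype PAK5 knockdown, PAK5 being a p21-activated serine/threonine kinase. The labels gave no hairpin sequence, time after transduction or clone, and left unsaid whether the replicates were grown apart. All errors and p-values below therefore describe the spread among these 6 libraries, and that spread may be technical.

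AP-1 subunits carry a basic region, which contacts DNA, and a leucine zipper, through which they pair. JUN proteins can pair with each other or with FOS proteins, whereas FOS proteins need a partner and form stable dimers with JUN proteins. Many of the genes are switched on within minutes by growth factors through ERK and JNK kinases, and FOSL1 protein accumulates under sustained ERK signalling. In breast cancer cells FOSL1 is known for its link to the mesenchymal, invasive state. BATF3 and JDP2 are smaller relatives that lack a transactivation domain and can act as repressors.

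The sequences below are shown because they are the letters that these proteins, or the related CREB and ATF proteins, bind, and because they lie at the starts of subunit genes themselves. In the RefSeq promoters (GRCh38.p14, 250 bases before to 50 bases after a start), 7 of the 9 genes had an entry. FOSL1 and BATF3 had none, so their promoters were not searched. Both strands were searched for TGACTCA, the AP-1 site, for TGACGTCA, the cAMP response element, and for TGACATCA, a variant of it. None of these motifs contains another. Each of 3 genes had 1 match, printed 5′ to 3′ on the gene's strand with the motif in capitals.
FOSL2, chr2:28392851-28392879, plus strand, motif from base 5 after the start: tgccattgtagTGACTCAtctcgggcaga
JUN, chr1:58784096-58784125, minus strand, motif from base -67: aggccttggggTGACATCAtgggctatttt
JUND, chr19:18281804-18281833, minus strand, motif from base -200: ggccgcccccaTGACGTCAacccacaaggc
Of all 35116 promoters in that set, 4.95% held TGACTCA, 1.85% held TGACGTCA and 2.61% held TGACATCA. Positions are counted from the start in the RefSeq set, and the FOSL2 and JUN matches lie inside the gene spans given below. A match is a description of the letters and does not show that a factor was bound.

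The libraries held 15085168 to 18146091 reads, recovered from FPKM and gene length. PAK5 had 0 reads in all 6 libraries, for which 3 reads (0.0335 to 0.0403 FPKM per library, counting error only) are the upper limit, so the knockdown could not be checked. The cell label was set against marker lists, also chosen with earlier results of these data known. Of 13 genes linked to the mesenchymal state of the labelled line, 8 had a mean of at least 1 FPKM, VIM among them, while FN1 and SPARC were lower than that and no read mapped to CDH2, TWIST1 or COL6A2. In limma-voom, a fit to recovered reads, COL6A1 was lower in shPAK5, and CDH1 and EPCAM were higher (adjusted p = 0.0256, 0.0377 and 0.0474). By contrast limma called none of them (adjusted p = 0.145, 0.129 and 0.168). Of all genes tested, limma-voom called 1.04% and limma 0.116%. Of 12 epithelial genes, 8 had a mean of at least 1 FPKM, led by KRT19, KRT8 and KRT18. Both lists ran both ways. Groups did not overlap for 4 of the 8 mesenchymal genes (50%), 3 with shPAK5 higher (VIM, AXL and CD44) and 1 lower. The same held for 6 of the 8 epithelial genes (75%), 4 higher and 2 lower (ESRP2 and KRT18). Across all genes tested the share was 23.1%. Of 8 breast lineage genes, 3 (KRT5, ERBB2 and FOXA1) had a mean of at least 1 FPKM, and the groups overlapped for all 3. The markers thus went only in part with the mesenchymal state of the labelled line. VIM was abundant, but FN1, SPARC, CDH2, TWIST1 and COL6A2 were low or absent, and epithelial keratins were high. The label is used here only as a label. All 8 immune markers were below 1 FPKM, with sums of 0.654 to 1.04 FPKM in shNC and 1.07 to 1.69 in shPAK5, and so were all 6 endothelial markers, with sums of 0.0789 to 0.139 and 0.0446 to 0.0931. Of 8 fibroblast markers only LUM exceeded 1 FPKM, with sums of 102 to 125 FPKM for the list in shNC and 114 to 115 in shPAK5, and COL1A2 had 0 reads. The part of these markers in the results was not tested. In bulk libraries fewer cells with an mRNA and less of it per cell cannot be told apart.

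FOSL1 encodes FRA-1, a FOS-family protein. The gene is read from the minus strand of chromosome 11, 65892049 to 65900573 (GRCh38), with 1887 exonic bases in 4 blocks, none shared with another gene. Its mRNA was at 26.1, 27.1 and 26.2 FPKM in shNC replicates 1 to 3 and at 19.7, 20.1 and 22.1 FPKM in shPAK5 replicates 1 to 3. All 3 shPAK5 libraries lay below all 3 shNC libraries. The means were 26.5 ± 0.543 and 20.6 ± 1.27 FPKM (SD, n = 3), a ratio of 0.779, and the difference of mean log2(FPKM + 1) was -0.35 ± 0.05 (SE). The values rested on 825 to 865 reads per shNC library and 629 to 675 per shPAK5 library. For such read numbers counting alone gives a relative error of 3.65% per library, and the coefficient of variation was 2.05% in shNC and 6.14% in shPAK5. Among the 11237 genes that averaged 1 FPKM or more, this difference stood at the 1.08 percentile, counted from the most negative.

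FOSL2 encodes FRA-2, the FOS-family protein most like FRA-1, and lies on chromosome 2 from 28392448 to 28417312. It was at 19.8, 22.2 and 21.6 FPKM in shNC and at 22.0, 22.2 and 22.0 FPKM in shPAK5. The groups overlapped, and the shNC libraries were the more spread. The log2 difference was 0.06 ± 0.05 (SE), with a 95% interval from -0.06 to 0.18. FOS, the first immediate early gene of the family, lies on chromosome 14 from 75278774 to 75282230. It was at 18.0, 21.3 and 20.1 FPKM in shNC and at 21.2, 19.9 and 20.9 FPKM in shPAK5. Replicate 1 of shNC was the lowest library for both FOSL2 and FOS. For FOS the log2 difference was 0.06 ± 0.07 (SE), with a 95% interval from -0.09 to 0.21.

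FOSB, an inducible gene whose product is best known from the brain, was close to absent. Its values were 0.154, 0.204 and 0.249 FPKM in shNC and 0.179, 0.0958 and 0.203 FPKM in shPAK5, with 9 to 23 reads per library. The groups overlapped. At a mean of 0.181 FPKM the gene stayed below the minimum of 1 FPKM set for the fit across genes.

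JUN encodes c-Jun, the main target of the JNK kinases, from a single exon on the minus strand of chromosome 1 (58780788 to 58784327). It was the least abundant of the 3 JUN genes, at 12.9, 13.3 and 13.1 FPKM in shNC and at 13.7, 13.9 and 14.8 FPKM in shPAK5. All 3 shPAK5 libraries lay above all 3 shNC libraries, by a smaller step than for FOSL1. The means were 13.1 ± 0.166 and 14.1 ± 0.569 FPKM (SD, n = 3), a ratio of 1.08. The log2 difference was 0.10 ± 0.05 (SE), with a 95% interval from -0.01 to 0.21.

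JUNB, which can oppose JUN at many promoters, was the most abundant subunit mRNA. Its values were 68.9, 72.7 and 73.2 FPKM in shNC and 73.1, 68.6 and 76.0 FPKM in shPAK5. The shPAK5 libraries spanned the whole shNC range, and the log2 difference was 0.02 ± 0.05 (SE), with a 95% interval from -0.09 to 0.13. JUNB is a single exon on chromosome 19 from 12791496 to 12793315, and 259 of its 1820 bases (14.2%) are also exonic in HOOK2 on the other strand. Whether the counting used strand is not given in the sources used here, so part of the JUNB reads cannot be assigned with certainty.

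JUND, the JUN gene with the steadiest expression in most cells, was at 43.8, 48.7 and 44.7 FPKM in shNC and at 46.9, 43.8 and 43.4 FPKM in shPAK5. Its single exon spans 18279760 to 18281622 on chromosome 19, minus strand. The groups overlapped, and the log2 difference was -0.03 ± 0.05 (SE), with a 95% interval from -0.16 to 0.09.

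JDP2, a repressor that pairs with JUN proteins, was just above the minimum, at 1.28, 1.25 and 1.39 FPKM in shNC and at 1.45, 1.16 and 1.17 FPKM in shPAK5. The groups overlapped, with shPAK5 replicate 1 the highest of all libraries, and the log2 difference was -0.03 ± 0.09 (SE), with a 95% interval from -0.23 to 0.17. It lies on chromosome 14 from 75427716 to 75474111, and 26 of its exonic bases are shared with another gene. BATF3, known from dendritic cells and lymphocytes, had 0, 0 and 1 read in shNC and 1, 3 and 0 reads in shPAK5. No library exceeded the limit of 3 reads that a count of 0 allows, which corresponded to 0.0609 to 0.0733 FPKM, so no fold is given. The gene lies on chromosome 1 from 212686418 to 212699985.

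**Figure D1:**
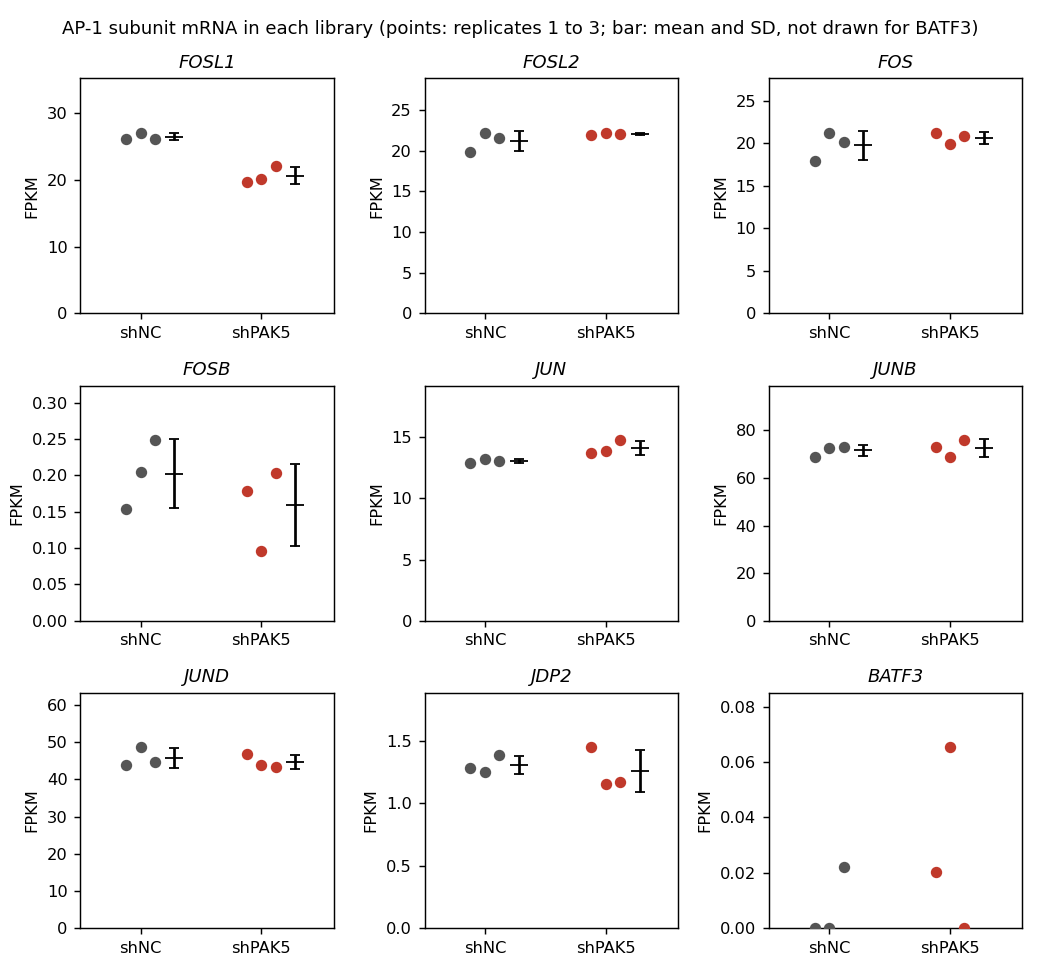
FPKM (linear axis from 0) of the 9 subunit genes in each of the 3 shNC libraries (grey) and 3 shPAK5 libraries (red), with the mean and SD beside the points except for BATF3. Only FOSL1, with 19.7 to 22.1 FPKM against 26.1 to 27.1, and JUN, with 13.7 to 14.8 against 12.9 to 13.3, have groups that do not overlap.

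In shNC the order of levels, on the FPKM scale, was JUNB, JUND, FOSL1, FOSL2, FOS, JUN, JDP2, FOSB and BATF3. Of these neighbours only FOSL2 and FOS overlapped in their library values. In shPAK5 the order was JUNB, JUND, FOSL2, FOS, FOSL1, JUN, JDP2, FOSB and BATF3, and the values of FOSL1 overlapped those of both FOSL2 and FOS. FOSL1 was thus the most abundant FOS-family mRNA in each shNC library. In shPAK5 its mean, 20.6 FPKM, was below that of FOSL2, 22.1 FPKM, and close to that of FOS, 20.7 FPKM.

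Groups did not overlap for 2 of the 7 subunit genes that reached 1 FPKM. Across all genes tested this held for 23.1%, for 10.5% with shPAK5 lower and for 12.6% with shPAK5 higher. In limma on log2(FPKM + 1), adjusted by Benjamini-Hochberg over all genes, none of the 7 passed 0.05, against 0.116% of all genes tested (0.0267% lower and 0.089% higher in shPAK5), and 1 of the 7 had an unadjusted p under 0.05, against 17.0% of all genes. In limma-voom the count was 1, FOSL1, against 1.04% of all genes and 0.196% with shPAK5 lower, with a log2 difference of -0.36. Since the contrast took part in choosing the genes, none of these counts supports a difference.

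FOSL1 was next set against the other FOS and JUN genes within each library, which removes any scaling shared by the genes. FOSL1 made up 40.8, 38.3 and 38.5% of the summed FOS-family FPKM in shNC and 31.2, 32.3 and 33.9% in shPAK5. Every shPAK5 library had a smaller FOSL1 share than every shNC library, with means of 39.2 ± 1.39% and 32.5 ± 1.32% (SD, n = 3). The share of FOSL2 was 31.3 ± 0.345% in shNC and 34.7 ± 0.937% in shPAK5, and that of FOS was 29.2 ± 1.04% and 32.5 ± 0.962%. As parts of 1 total, these shares are bound to move against each other. FOSB was 0.154 to 0.365% of the total. The summed FOS-family level was 64.1 to 70.8 FPKM in shNC and 62.4 to 65.2 FPKM in shPAK5, which overlapped.

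The make-up of the JUN family differed less. JUNB took 54.9 ± 0.945% of the summed JUN-family FPKM in shNC and 55.2 ± 1.26% in shPAK5, and JUND took 35.0 ± 1.03% and 34.0 ± 1.48% (SD, n = 3). The share of JUN was 9.85 to 10.3% in shNC, with a mean of 10.8 ± 0.419% in shPAK5, and the groups overlapped, since shPAK5 replicate 1 lay within the shNC range. The JUN-family sum was 130 ± 4.55 and 131 ± 4.42 FPKM. The ratio of the FOS-family to the JUN-family sum was 0.510 to 0.526 in shNC and 0.472 to 0.494 in shPAK5. These ranges did not overlap, and JUN-family mRNA was in excess in all 6 libraries. FOSL1 is part of the FOS-family sum, so the ratio counts its lower shPAK5 values again and is no separate result.

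**Figure D2:**
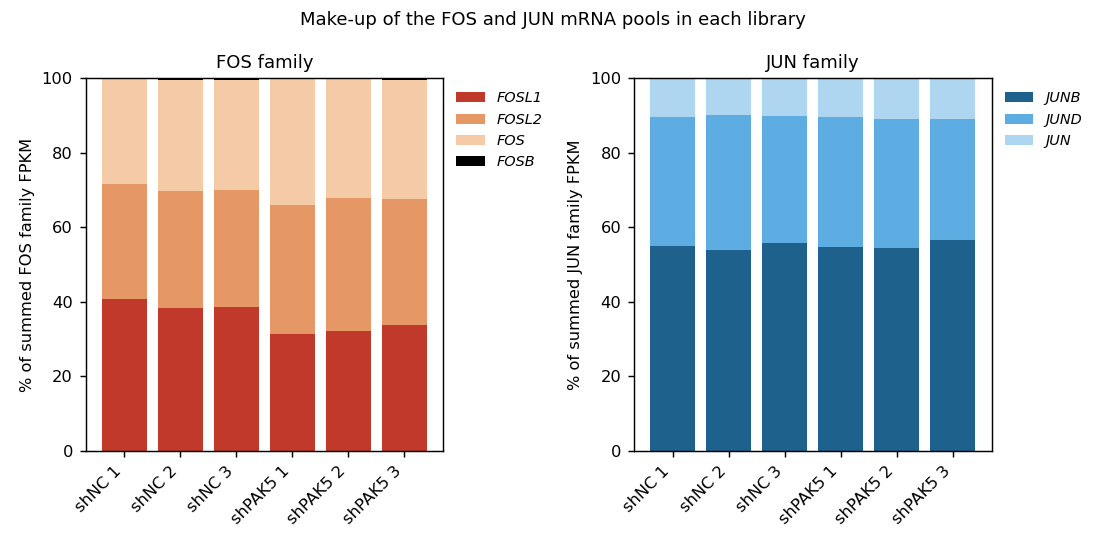
Share (%) of each gene in the summed FPKM of the FOS family (left) and of the JUN family (right), 1 bar per library. The FOSL1 share is 38.3 to 40.8% in the shNC libraries and 31.2 to 33.9% in the shPAK5 libraries, while JUNB stays between 54.0 and 56.6% of its family.

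On the log2(FPKM + 1) scale FOSL1 stood -0.05, -0.12 and -0.12 from the mean of the 5 other FOS and JUN genes with at least 1 FPKM (FOSL2, FOS, JUN, JUNB and JUND) in shNC. In shPAK5 it stood -0.56, -0.48 and -0.41 from that mean. The groups did not overlap, and the means differed by -0.39. The ratio of FOSL1 to FOSL2 FPKM was 1.25 ± 0.0576 in shNC and 0.935 ± 0.0586 in shPAK5, and that of FOSL1 to FOS was 1.34 ± 0.0968 and 0.999 ± 0.0650 (SD, n = 3).

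GC content of the transcripts moved with the libraries. For the 20% of genes with the highest GC content the median deviation from the gene means was 0.07 and 0.06 (log2) in shNC replicates 2 and 3, but -0.06 in shNC replicate 1 and -0.03 to -0.02 in shPAK5. The GC content of FOSL1 transcripts, 60.1%, was at or above that of 84.8% of the genes tested. After a GC correction, added once the data had been seen, the log2 difference of FOSL1 was -0.29, that of JUN 0.15, of FOS 0.11 and of FOSL2 0.08. The distance of FOSL1 from the 5 other genes then differed by -0.38 between groups. Without shNC replicate 1, the library that differs from its group in this trend, the difference of FOSL1 was -0.36. That setting keeps shNC replicates 2 and 3, so group and GC trend cannot be told apart in it.

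The wider bZIP class, to which AP-1 belongs, was taken from the deposited annotation, which marks 39 further genes. Of these, 27 reached 1 FPKM, and neither limma nor limma-voom called any of them, against 0.116% and 1.04% of all genes tested. By limma 8 of the 27 (29.6%) had an unadjusted p under 0.05, against 17.0% of all genes tested. Their log2 differences ran from -0.22 to 0.22, with a median of 0.03 beside 0.00 for all genes tested, and 11 (40.7%) had groups that did not overlap, against 23.1% of all genes. FOSL1, at -0.35, lay outside that range. ATF4, the stress-response factor, was the most abundant at 105 ± 1.31 FPKM in shNC and 94.8 ± 1.78 in shPAK5 (SD, n = 3, limma adjusted p = 0.171). CREB3, an ER-bound factor, was at 42.6 ± 2.81 and 43.5 ± 1.02 FPKM (limma adjusted p = 0.8004), and NFE2L1, a regulator of proteasome genes, at 43.0 ± 3.02 and 40.2 ± 1.11 FPKM (limma adjusted p = 0.432). BATF, the relative of BATF3, had 0 reads in all 6 libraries, and BATF2 and ATF3 were below 1 FPKM.

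**Figure D3:**
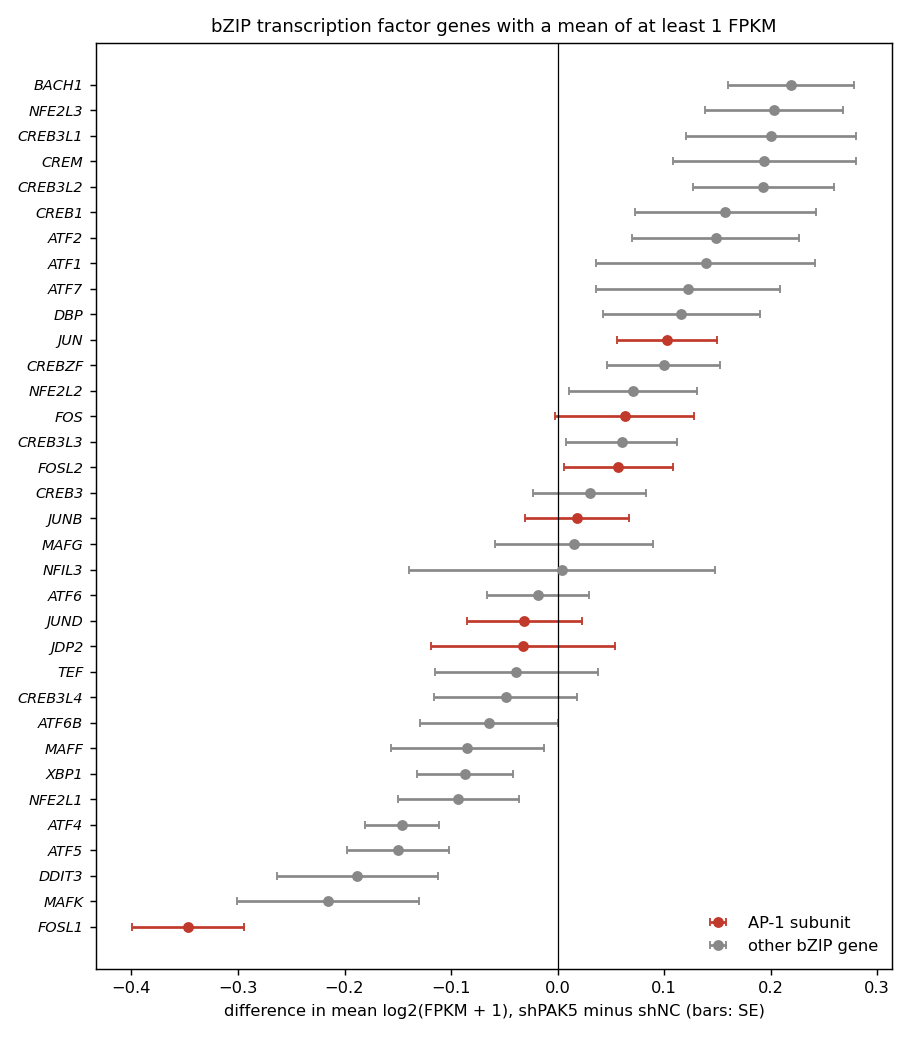
Difference of mean log2(FPKM + 1), shPAK5 minus shNC, with its SE from limma, for the 7 AP-1 subunit genes (red) and the 27 other bZIP genes (grey) with a mean of at least 1 FPKM. FOSL1 is the lowest at -0.35, and the other 6 subunits lie between -0.03 and 0.10.

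Genes of the pathway were taken from 8 lists, chosen with earlier results of these data known. Their counts and shares are therefore a description and support no difference. Of 174 genes in them, 134 reached 1 FPKM and none passed in limma, against 0.116% of all genes tested. By limma 33 of the 134 (24.6%) had an unadjusted p under 0.05, against 17.0% of all genes tested. Groups did not overlap for 38 of the 134 (28.4%), against 23.1% of all genes. In limma-voom 2 of the 134 passed, both higher in shPAK5, against 1.04% of all genes tested. They were MMP7, a matrix protease and AP-1 target, at 14.5 ± 0.626 FPKM in shNC and 18.6 ± 1.55 in shPAK5 (SD, n = 3, limma-voom adjusted p = 0.0423), and CDH1, the epithelial adhesion protein E-cadherin, at 4.64 ± 0.180 and 5.84 ± 0.0905 FPKM (limma-voom adjusted p = 0.0377). In limma their adjusted p was 0.145 and 0.129. Both are named for this pass, outside the rule for named genes.

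Upstream of AP-1, 25 of 30 RAS, RAF, MAPK and related kinase genes reached 1 FPKM, with 13 positive and 12 negative differences and a median of 0.01. Groups did not overlap for 2 of the 25 (8%), both with shPAK5 higher, against 23.1% of all genes tested. By limma 2 of the 25 (8%) had an unadjusted p under 0.05, against 17.0% of all genes. EGFR, the receptor of EGF, was at 59.5 ± 1.43 FPKM in shNC and 64.0 ± 1.31 in shPAK5 (SD, n = 3, limma adjusted p = 0.2499). MAP2K2, the kinase MEK2, was at 36.0 ± 2.67 and 34.1 ± 1.47 FPKM, and MAPK3, the kinase ERK1, at 20.2 ± 0.256 and 20.1 ± 1.36 FPKM (limma adjusted p = 0.559 and 0.947). All 14 factors known to act at the FOS and JUN promoters reached 1 FPKM, with 9 positive differences and a median of 0.06. Groups did not overlap for 5 of the 14 (35.7%), 3 with shPAK5 higher and 2 lower, against 23.1% of all genes tested. By limma 2 of the 14 (14.3%) had an unadjusted p under 0.05, against 17.0% of all genes. YY1, a zinc finger factor, was at 30.9 ± 2.01 and 33.0 ± 0.769 FPKM, SP1, a factor of GC boxes, at 20.7 ± 0.401 and 21.5 ± 0.472, and ELK3, a ternary complex factor of SRF, at 20.1 ± 0.0597 and 21.5 ± 1.17 (limma adjusted p = 0.4103, 0.563 and 0.406).

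Genes that respond to the same signals gave no call in limma or limma-voom, against 0.116% and 1.04% of all genes tested. Of 24 immediate early genes outside AP-1, 16 reached 1 FPKM, with 5 positive and 11 negative differences and a median of -0.04. Groups did not overlap for 3 of the 16 (18.8%), all with shPAK5 lower, against 23.1% of all genes tested. By limma 3 of the 16 (18.8%) had an unadjusted p under 0.05, against 17.0% of all genes. IER3, a survival factor, was at 85.7 ± 4.90 FPKM in shNC and 90.8 ± 3.39 in shPAK5 (SD, n = 3), MYC at 54.6 ± 1.89 and 52.4 ± 0.906, and MCL1, a BCL2 relative, at 37.1 ± 2.03 and 37.7 ± 0.403 FPKM (limma adjusted p = 0.444, 0.496 and 0.844). Of 20 genes known as ERK output, 17 reached 1 FPKM, with 9 positive and 8 negative differences and a median of 0.03. Groups did not overlap for 4 of the 17 (23.5%), all with shPAK5 higher, against 23.1% of all genes tested. By limma 5 of the 17 (29.4%) had an unadjusted p under 0.05, against 17.0% of all genes. The most abundant, besides IER3, were the ephrin receptor EPHA2, at 103 ± 9.06 and 96.1 ± 2.88 FPKM, and the cyclin gene CCND1, at 79.0 ± 3.95 and 82.5 ± 1.74 FPKM (limma adjusted p = 0.463 and 0.515).

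Among AP-1 target genes, 18 of 30 reached 1 FPKM, with 10 positive and 8 negative differences and a median of 0.04. Groups did not overlap for 7 of the 18 (38.9%), 4 with shPAK5 higher and 3 lower, against 23.1% of all genes tested. By limma 5 of the 18 (27.8%) had an unadjusted p under 0.05, against 17.0% of all genes. KRT18, a simple-epithelial keratin, was at 874 ± 14.5 FPKM in shNC and 805 ± 15.5 in shPAK5 (SD, n = 3), NQO1, a quinone reductase, at 505 ± 19.2 and 532 ± 11.7, and VIM, the mesenchymal filament protein, at 149 ± 10.2 and 164 ± 3.09 FPKM (limma adjusted p = 0.1902, 0.356 and 0.239). Of 23 genes linked to FOSL1 in invasion, 17 reached 1 FPKM, with 8 positive and 9 negative differences and a median of -0.04. In limma 8 of these 17 (47.1%) had an unadjusted p under 0.05, against 17.0% of all genes tested. Groups did not overlap for 9 (52.9%), against 23.1% of all genes, 6 with shPAK5 higher and 3 with shPAK5 lower. The list holds genes known from work on FOSL1, and the differences ran both ways. It was chosen with earlier results of these data known, so neither share supports a difference. HMGA1, a chromatin protein, was at 664 ± 11.8 and 644 ± 8.38 FPKM, and LAMB3, a chain of laminin-332, at 61.9 ± 5.16 and 55.6 ± 1.35 FPKM (limma adjusted p = 0.495 and 0.288). MMP1 and MMP9, proteases often used as readouts of AP-1, were both below 1 FPKM. Of 19 genes that act in the decay of AP-1 proteins or mRNAs, 18 reached 1 FPKM, with 8 positive and 10 negative differences and a median of -0.01. Groups did not overlap for 6 of these 18 (33.3%), 3 in each direction, and 4 (22.2%) had an unadjusted limma p under 0.05. The shares of all genes tested were 23.1% and 17.0%. The RNA-binding decay factors KHSRP and ZFP36L1 were at 62.0 ± 1.47 and 57.5 ± 1.45 and at 51.9 ± 2.04 and 57.0 ± 2.21 FPKM, and the ubiquitin ligase scaffold CUL1 was at 36.2 ± 3.32 and 35.5 ± 1.34 FPKM (limma adjusted p = 0.2499, 0.241 and 0.894).

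**Figure D4:**
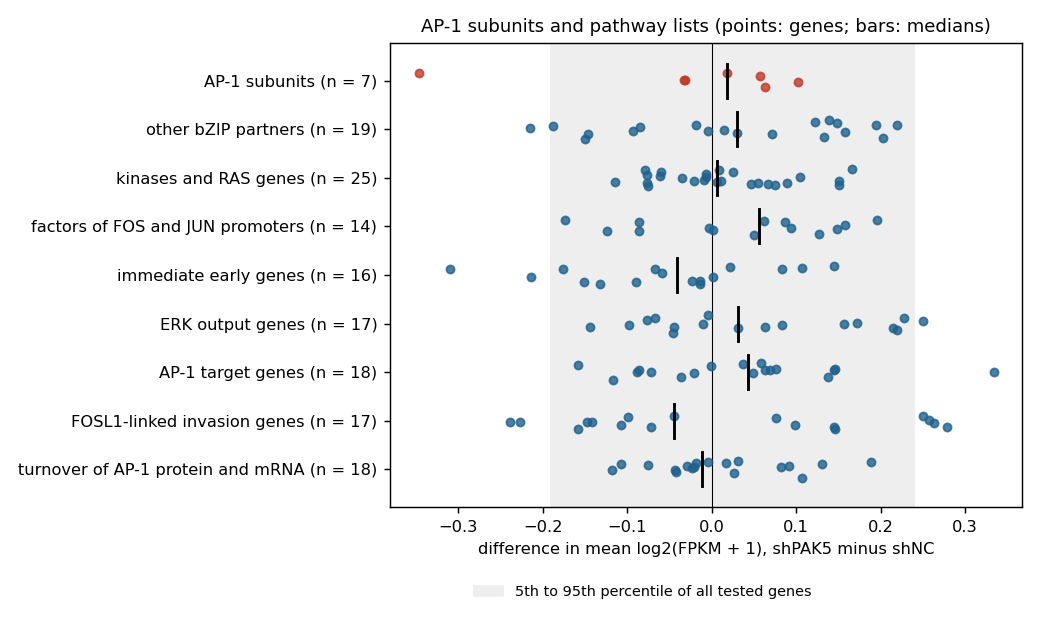
Difference of mean log2(FPKM + 1), shPAK5 minus shNC, for each gene with at least 1 FPKM (points) of the AP-1 subunits (red) and of the 8 pathway lists (blue), with the list medians as bars. The grey band spans -0.19 to 0.24, the 5th to 95th percentile of all genes tested, and FOSL1 at -0.35 is the lowest point shown.

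The genes whose log2(FPKM + 1) followed FOSL1 most closely over the 6 libraries, among 6590 genes with at least 5 FPKM, were ATF4 (Pearson r = 0.997), the histone variant gene H2AFZ (r = 0.995) and CRABP2, a carrier of retinoic acid (r = 0.994). The points share libraries and the step between groups, so that r describes that step more than variation within a group. CRABP2 was at 12.2, 13.8 and 12.5 FPKM in shNC and at 8.22, 8.11 and 9.52 FPKM in shPAK5. H2AFZ was at 190 ± 0.402 and 171 ± 4.03 FPKM (SD, n = 3), and ATF4 stands above among the bZIP genes. Since the 3 genes were picked for following FOSL1, no test of their difference between groups is given here. The adjusted p of ATF4 above was given for it as an abundant bZIP gene. For JUNB, whose groups overlapped, the closest were SLCO3A1, PHF13 and CLDN4 (r = 0.990, 0.987 and 0.983), and none of these had groups that did not overlap.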

How the data were processed

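Per the labels' protocols, a NEBNext Ultra RNA kit was used for the libraries. The sources used here do not give the aligner, the counter or the use of strand. The build mm10 (mouse) is named in the submitters' processing notes. Yet each of the 58735 gene rows matched human GENCODE 29 (GRCh38) by ID, coordinates and exonic length. FPKM per gene and library are the authors' values, per the file headers. Multiplied by gene length, they were whole multiples of 1 step per library for 100% of values, within 0.001, which gave the reads.

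limma 3.58.1 in R 4.3.3 (eBayes with trend) was fitted to log2(FPKM + 1), with no covariate beside the group, over 11237 genes averaging 1 FPKM or more, adjusted by Benjamini-Hochberg at 0.05. This scale understates the change of low genes. All log2 differences are on it, except those of limma-voom. Members and lists were chosen with earlier results of these data known. Named genes were the 9 subunits, up to 4 passing members per list or else its 3 most abundant, and the 3 closest to FOSL1 and to the most abundant other subunit. Alternatives were another pseudocount, 2 filters, 2 scalings, eBayes without trend, limma-voom with the authors' totals as library sizes, a replicate block, each library left out, and a GC correction (loess, span 0.3) chosen after seeing the data. Replicates of a group differed by more than counting noise, with chi-square values of 2.32 to 9.31 per degree of freedom. The fits were tested on simulated data.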

Additional observations from a re-analysis of the deposited data

How the results depend on the processing

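The log2 difference of FOSL1 was negative in all 15 alternatives, from -0.39 to -0.29, and that of JUN positive in all 15, from 0.07 to 0.15. The 2 filters, eBayes without trend and the replicate block leave such a difference unchanged by construction. Where groups do not overlap, as for FOSL1 and JUN, leaving out 1 library cannot change the sign. Those settings therefore add nothing on the sign for these genes. The log2 differences of FOS, JUNB, JUND and JDP2 each changed sign in 1 or 2 alternatives. The distance of FOSL1 from the other FOS and JUN genes differed between groups by -0.43 to -0.35, shPAK5 minus shNC. Subunit genes past the threshold, a count that supports nothing since the contrast took part in choosing them, numbered 0 in limma and with the replicate block. The count was 1, FOSL1, with a minimum of 5 FPKM, in limma-voom and without shNC replicate 1, settings that also raised the count over all genes. Leaving out 1 library gave 0 to 1. Pathway genes past it numbered 0 in limma, 2 in limma-voom, 1 (ZFP36L2) with the GC correction, and 0 to 14 with 1 library left out, the 14 without shNC replicate 1. The 13 genes past it overall became 7 with no filter, 31 with a minimum of 5 FPKM, 20 with quantile normalization (13 higher and 7 lower), 117 in limma-voom and 57 with the GC correction, and 2 to 937 with 1 library left out, the 937 without shNC replicate 1 and 5 or fewer without any other. The cause of these moves was not tested. With the replicate block 2 genes passed, but same-numbered libraries did not deviate together (r = 0.07, -0.02 and 0.01), so the numbers were not taken as pairs. FOSB and BATF3 rest on so few reads that only their low level is supported at this depth.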
